A study of Arabidopsis thaliana with 12 samples.

Results

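The loci described here are 3676 of the 35651 genes in the deposited count tables of *Arabidopsis thaliana* seedlings. They were chosen by identifier alone, as the loci on chromosomes 1 to 5 whose number is below 10000 and does not end in 0. The block from AT2G07660 to AT2G07840 was left out. No measured value enters this rule, though it was set with earlier results of these data known. *Arabidopsis* loci were first numbered along each chromosome in even steps that end in 0, so an identifier with another last digit marks a locus that was added later. In the RefSeq annotation of TAIR10.1, 3615 of these loci were found. Of these, 2168 are long noncoding RNA (lncRNA) loci, 610 are protein-coding, 514 are pseudogenes, 250 encode small RNAs (125 snoRNA, 60 tRNA, 43 snRNA and 22 miRNA), 72 are other noncoding RNAs and 1 is an antisense RNA. The label of mostly noncoding loci therefore held, with 2491 loci (68.9%) in the noncoding RNA classes.

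Messenger-like RNA was sequenced from 14-day-old seedlings of the Col-0 ecotype, from 500 ng of total RNA each, in 12 libraries that form 4 sets of 3. By sample title the sets are Col-0, cdca7a cdca7b, h1.1 h1.2 and the quadruple mutant h1.1 h1.2 cdca7a cdca7b. CDCA7 proteins work with the remodeler DDM1 in CG methylation maintenance, and H1.1 and H1.2 are the main linker histones of *Arabidopsis*. The CDCA7 alleles are CRISPR-Cas9 mutations, and each replicate was 1 seedling. For 9 of the 12 libraries the name of the count table gives another genotype than the title. Tables named h1 belong to libraries titled Col-0, while those named col belong to the cdca7a cdca7b title and those named cdca7acdca7b to the h1.1 h1.2 title, and only the 3 quadruple mutant libraries have the same genotype under both. The genotype field of the labels reads Col-0 for all 12. Sets are called by their titles below, and each comparison is also read by table names.

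Long noncoding RNAs are transcribed by RNA polymerase II and are often spliced and polyadenylated, but have no long open reading frame. In plants many lie opposite a coding gene, as natural antisense transcripts, and others lie in pericentromeric heterochromatin, where CG methylation copied by MET1 after replication keeps transposons and repeats silent. A few have well studied roles, such as IPS1 and AT4, which bind a phosphate-starvation microRNA as decoys. RefSeq annotates both as protein-coding, so they count in that class here and not among the lncRNA loci. IPS1 (AT3G09922) had 0 counts in all 12 libraries. AT4 (AT5G03545) had 4 counts in replicate 3 titled Col-0 and 21 in replicate 1 titled h1.1 h1.2, and 0 in the other 10 libraries. AT2G01021, a locus of 102 bases beside the ribosomal RNA genes of chromosome 2, had 0 counts throughout. A count of 0 allows up to 3 counts in a library, so IPS1 and AT2G01021 were not detected at this depth, while AT4 was detected in 2 libraries.

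Each library had 450869 to 833911 counts on genes, out of 25236235 to 43462077 reads in its table, because 97.6 to 98.4% of the reads were counted as lying in no gene. The 11 seedling leaf markers (Rubisco, Rubisco activase and chlorophyll-binding genes) took 2.12% and 0.367% of the gene counts in replicates 1 and 3 titled h1.1 h1.2 and 0.0404% in replicate 2, against 0.0415 to 0.0763% in the 9 other libraries. The leaf markers were detected in every set, at 192 to 423 counts in those 9 libraries, while 3 flower genes had 0 to 3 counts in any library. The 4 seed storage genes reached 141 counts in 1 quadruple mutant library and 0 to 2 in the 11 others. The 4 genes targeted by the mutations had 0 to 21 counts and could not decide between titles and table names. Replicates 1 and 3 titled h1.1 h1.2 also detected more genes, 17286 and 13676, against 9813 to 12585 in the other libraries. Their shares of reads in no gene were 97.6% and 97.9%, against 98.1 to 98.4% in the others. The cause of these differences was not tested. Replicates 1 and 3 titled h1.1 h1.2 are called leaf-rich below for their marker counts only. Whether these seedlings held more leaf was not tested. In bulk seedlings, fewer cells of a type and less RNA per cell cannot be told apart.

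The 6 sequences that follow belong to loci whose counts differed between sets and are shown for their CG dinucleotides, the sites of the methylation that CDCA7 helps to maintain. Each is the start of the exonic sequence of the locus on its own strand (TAIR10.1, 240 bases, exons joined), 5′ to 3′, with every CG in capitals. The first 2 had their highest counts in the libraries titled h1.1 h1.2, the next 3 in those titled Col-0 and the quadruple mutant, and the last in 2 libraries titled cdca7a cdca7b.
AT3G06465: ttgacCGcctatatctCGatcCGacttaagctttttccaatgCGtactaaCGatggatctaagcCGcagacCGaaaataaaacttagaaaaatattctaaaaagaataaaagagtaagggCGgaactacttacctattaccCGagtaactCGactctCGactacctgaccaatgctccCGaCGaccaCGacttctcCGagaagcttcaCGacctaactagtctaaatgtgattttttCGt
AT2G05915: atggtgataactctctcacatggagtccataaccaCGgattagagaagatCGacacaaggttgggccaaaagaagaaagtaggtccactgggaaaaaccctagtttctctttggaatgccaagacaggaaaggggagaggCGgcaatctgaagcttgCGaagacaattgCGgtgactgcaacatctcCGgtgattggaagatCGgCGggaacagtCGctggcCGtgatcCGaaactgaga
AT5G03715: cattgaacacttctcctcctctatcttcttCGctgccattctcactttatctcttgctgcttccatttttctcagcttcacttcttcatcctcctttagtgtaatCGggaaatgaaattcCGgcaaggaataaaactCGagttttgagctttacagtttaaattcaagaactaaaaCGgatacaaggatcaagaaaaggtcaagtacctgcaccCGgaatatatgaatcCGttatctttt
AT2G05705: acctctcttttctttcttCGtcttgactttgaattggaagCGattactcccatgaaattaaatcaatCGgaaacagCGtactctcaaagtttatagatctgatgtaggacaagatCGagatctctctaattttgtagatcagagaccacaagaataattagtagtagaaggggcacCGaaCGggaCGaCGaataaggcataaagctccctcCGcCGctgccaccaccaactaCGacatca
AT2G08735: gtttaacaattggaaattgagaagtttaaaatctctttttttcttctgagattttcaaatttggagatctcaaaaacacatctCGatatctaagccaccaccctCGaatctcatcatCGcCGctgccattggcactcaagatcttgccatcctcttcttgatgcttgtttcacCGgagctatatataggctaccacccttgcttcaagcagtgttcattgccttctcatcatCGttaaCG
AT2G05015: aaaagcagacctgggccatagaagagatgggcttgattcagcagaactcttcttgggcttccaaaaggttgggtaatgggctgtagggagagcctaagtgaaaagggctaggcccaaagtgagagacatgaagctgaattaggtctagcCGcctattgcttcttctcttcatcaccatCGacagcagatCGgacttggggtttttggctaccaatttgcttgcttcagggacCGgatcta
AT3G06465 (chr3:14791174-14791781, plus strand) holds 17 CG in the 240 bases printed, AT2G05705 (chr2:5021920-5022199, minus strand) 12 and AT2G05915 (chr2:2263816-2264265, plus strand) 11. AT5G03715 (chr5:8244584-8245112, plus strand) and AT2G08735 (chr2:14907257-14907716, plus strand) hold 7 each, and AT2G05015 (chr2:2753377-2754065, minus strand) holds 4. Among the 2778 annotated loci of this group with at least 240 exonic bases, 98.4% have at least 1 CG in their first 240 bases and the median is 7. Over whole exons, AT3G06465 has 5.56 CG per 100 bases, AT2G05705 5.0, AT2G05915 3.99, AT2G08735 3.70, AT2G05015 3.19 and AT5G03715 2.51. The median is 2.7 over the 3615 annotated members, 3.20 over the members tested below and 2.92 over all 34879 annotated nuclear genes. A CG in these sequences says nothing of whether it was methylated, since methylation was not analysed here.

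Most of the late-added loci had no counts in these seedlings. Of the 3676 loci, 2456 (66.8%) had 0 counts in all 12 libraries, against 10055 of the 31975 other genes. A library detected 447 to 584 of them, 216 were detected in all 12 libraries and 394 in 1 library only. They held 3.15 to 5.31% of the gene counts of a library while making up 10.3% of the genes. This share was 3.98% ± 0.34 (SD, n = 3) in the libraries titled Col-0, 4.28% ± 0.92 (n = 3) in those titled cdca7a cdca7b, 3.73% ± 0.71 (n = 3) in those titled h1.1 h1.2 and 4.19% ± 0.64 (n = 3) in the quadruple mutant. The ranges of the 4 sets overlapped.

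The counts were concentrated in a few loci. The 12 most abundant held 54.6% of the 295611 counts and the top 100 held 89.9%, while 1000 or more counts over all libraries were reached by 46 loci. By biotype, lncRNA loci held 81.0% of the counts and protein-coding loci 17.0%. Their detection differed, with at least 1 count in 750 of 2168 lncRNA loci (34.6%), in 319 of 610 protein-coding loci (52.3%) and in 83 of 514 pseudogenes (16.1%).

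The small RNA loci were nearly empty, in libraries made from polyadenylated RNA. Of the 250 snoRNA, tRNA, snRNA and miRNA loci, 34 had a count and together they held 0.237% of the counts. The miRNA precursor MIR165a (AT1G01183), whose microRNA targets the HD-ZIP III leaf polarity factors, had 4 counts over all 12 libraries, and MIR162a (AT5G08185), whose microRNA targets DCL1, had 3. The exception was the snoRNA AT1G07702, with 21 to 90 counts in every library (579 in total), whose 81 exonic bases all lie opposite an exon of the protein-coding gene AT1G07705. The most abundant tRNA, AT3G01705 (a proline tRNA), had 20 counts in total, and 67 of its 72 bases lie opposite the gene AT3G01710. The only locus annotated as antisense RNA, AT4G00975, had 53 to 156 counts in every library, and 683 of its 911 exonic bases overlap AT4G00980 on the other strand.

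Overlap with a gene on the other strand went with detection. Among lncRNA loci, 294 have exons that overlap an exon of a protein-coding gene on the other strand, and 245 of these (83.3%) were detected. Another 491 overlap only exons of other kinds of genes, with 176 detected (35.8%), and 1383 overlap no other-strand exon, with 329 detected (23.8%). The first group held 172170 counts, 58.2% of those of all members, in 8.13% of the annotated loci. The same order was seen in the late-added protein-coding loci, with 80 of 92 (87.0%), 25 of 43 (58.1%) and 214 of 475 (45.1%) detected. Protein-coding genes outside the group also followed it, with 94.6%, 82.9% and 72.8% detected, so the order is not particular to the late-added loci.

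**Figure D1:**
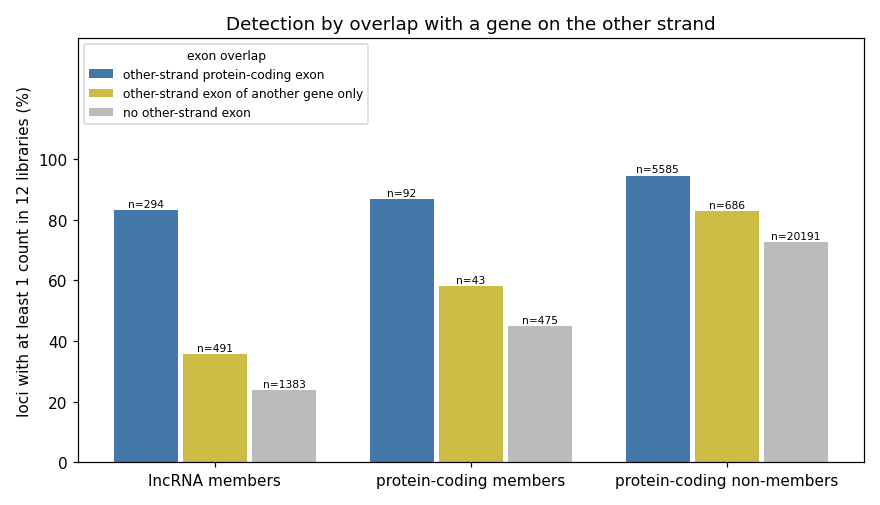
Share of loci with at least 1 count in the 12 libraries (vertical axis, percent) by overlap of their exons with exons on the other strand, for lncRNA and protein-coding members and for protein-coding genes outside the group; n is the number of loci in each bar. In each of the 3 classes the share is highest where a coding exon lies on the other strand, at 83.3%, 87.0% and 94.6%.

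Within such pairs the lncRNA locus usually had more counts than the coding gene. For 290 lncRNA loci the coding gene has a row in the tables, and per kb of exon the lncRNA was higher in 203 pairs, the coding gene in 66, and 21 were equal. The median was 46.6 counts per kb for the lncRNA loci and 2.40 for their coding genes, summed over the 12 libraries. The lncRNA locus was at least 10 times higher in 155 pairs and the coding gene in 38. For the 82 late-added protein-coding loci with such a partner the order was even, with the member higher in 39 pairs and the partner in 43. The libraries came from a stranded kit, but the strand option of the counting is not given in the sources used here. In the same libraries, 97.6 to 98.4% of the reads were counted as lying in no gene. Whether the counts of these loci are RNA of the locus itself or reads of the gene opposite was not tested.

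**Figure D2:**
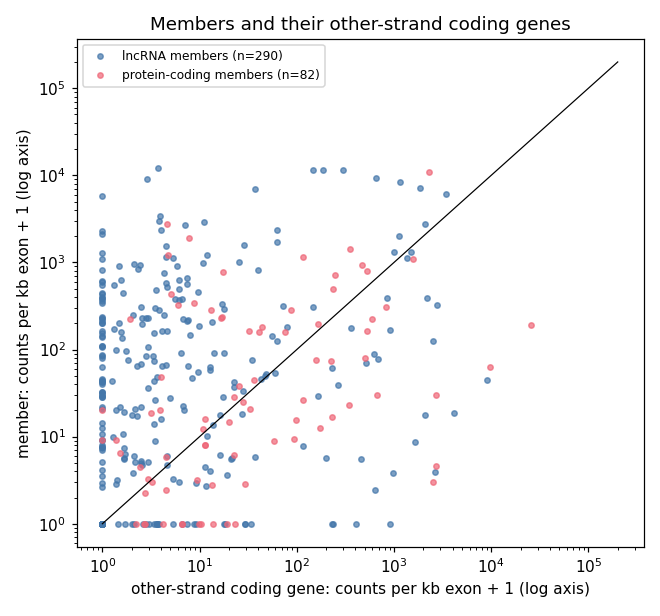
Counts per kb of exon, summed over 12 libraries, of each member (vertical axis) against those of the protein-coding gene whose exons it overlaps on the other strand (horizontal axis), both on a log axis after adding 1; the line marks equal values. Of the 290 lncRNA members (blue), 203 lie above the line, against 39 of the 82 protein-coding members (red).

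The most abundant loci were of this kind. Of the 12 members with the highest mean CPM (counts scaled to TMM-adjusted library size), 10 are lncRNA loci, and 10 of the 12 overlap a coding exon on the other strand. AT3G05905 (chr3:1760905-1764212, plus strand) had 2163 to 4389 counts in every library, a median of 4855 CPM and a ratio of 2.22 between the highest and lowest library. Of its 3161 exonic bases, 2273 lie opposite AT3G05900, a neurofilament protein-like gene, which had 11 to 64 counts. AT5G01215 had 866 to 2030 counts, while the acyltransferase gene AT5G01210 opposite to it had 53 to 159. AT1G05562, whose 2136 exonic bases all lie opposite exons of the glucosyltransferase gene UGT75B1 (AT1G05560), had 706 to 1732 counts and UGT75B1 had 392 to 977. The order of both partners was thus the same in the 3 pairs, with the late-added locus higher.

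AT5G06865 had 424 to 1636 counts, and PGIP1 (AT5G06860), a polygalacturonase inhibitor induced in defence, had 62 to 158 on the other strand. AT1G06002 had 493 to 1787 counts, and the glycosyltransferase gene AT1G06000 had 157 to 478. The protein-coding AT4G01935 had 628 to 1247 counts, and NFU1 (AT4G01940), a plastid iron-sulfur scaffold protein, had 116 to 291. AT4G01935 shares only 295 of its 952 exonic bases with NFU1 and was the most even of these loci, with a ratio of 1.39 between its highest and lowest CPM. AT3G01202 had 497 to 980 counts opposite RP2 (AT3G01200), a regulator of pyruvate orthophosphate dikinase, which had 0 to 9. AT1G09421 had 364 to 1034 counts opposite G6PD4 (AT1G09420), annotated as a glucose-6-phosphate dehydrogenase, which had 13 to 44. AT1G04295 had 431 to 654 counts opposite the thioesterase gene AT1G04290, with 12 to 49, and AT3G07555 had 315 to 890 counts opposite AT3G46845, with 0 to 2. Among the 12, only AT5G01595 and AT4G01595, a protein kinase gene with 327 to 914 counts, have no coding exon on the other strand, and AT4G01595 overlaps the lncRNA locus AT4G01593.

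AT5G01595 stood apart from the other abundant loci by its spread. It is an lncRNA locus of 264 exonic bases in 3 exons (chr5:226972-229286, plus strand) that spans part of the iron storage gene FER1 (AT5G01600) on the other strand without sharing an exonic base with it. It had 336, 1258 and 4210 counts in replicates 1 to 3 titled Col-0, and 10339, 430 and 82 in those titled cdca7a cdca7b. In the libraries titled h1.1 h1.2 it had 112, 1129 and 493 counts, and in the quadruple mutant 488, 6101 and 864. The highest library was 142 times the lowest in CPM, and every set overlapped every other. FER1 itself had 107 to 308 counts in the same libraries, so the wide spread was seen at AT5G01595 and not at FER1.

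None of the 12 abundant loci was called in any of the 6 pairs of sets (72 tests, edgeR quasi-likelihood F test). Their lowest adjusted p was 0.148, for AT3G05905, at a log2 fold change of -0.65, and 9 of the 72 tests had an unadjusted p under 0.05. Of all 4461 genes tested, 4.57% were called in at least 1 pair, so 0 of 12 does not set these loci apart. Against the libraries titled Col-0, 124 of the 4461 genes were higher and 106 lower in the quadruple mutant at that unadjusted p. In the libraries titled h1.1 h1.2, 486 were higher and 283 lower.

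**Figure D3:**
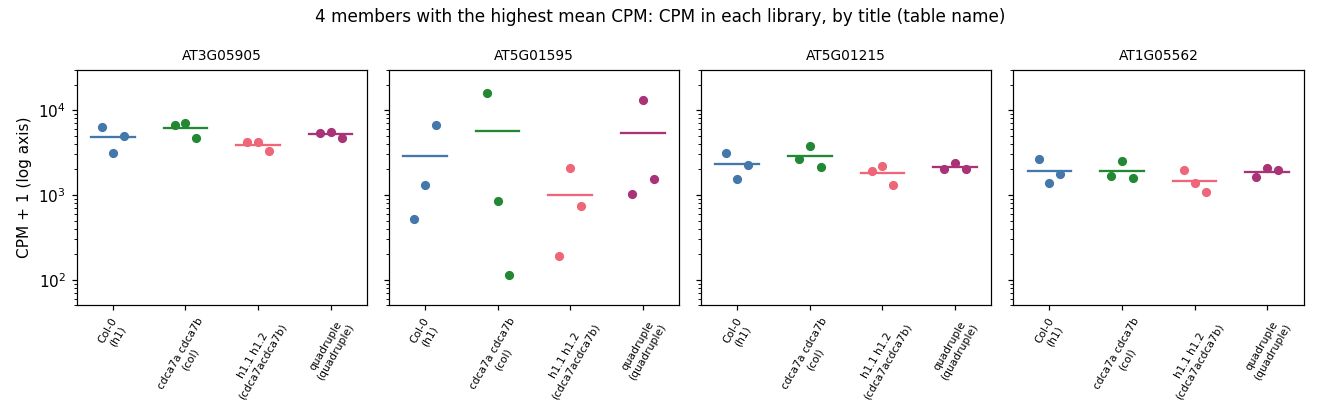
CPM plus 1 on a log axis in each of the 12 libraries (points) with the set mean (lines) for the 4 members with the highest mean CPM, sets named by title and, in brackets, by table name. AT5G01595 ranges 142-fold over the libraries and its sets overlap, while AT3G05905 ranges 2.22-fold.

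To ask which late-added loci differed between the sets, the 4461 genes with enough counts were tested in 1 fit of the 12 libraries. A call needed a Benjamini-Hochberg adjusted p under 0.05 (edgeR quasi-likelihood F test) and a log2 fold change of 1 or more in size. Of the 3676 late-added loci, 222 (6.04%) passed the filter, and they held 96.2% of the counts. The 998 other loci with counts were not tested. Of the 222, 158 are lncRNA loci and 56 are protein-coding. In at least 1 of the 6 pairs 16 of them (7.21%) were called, against 204 of all 4461 genes tested (4.57%). The 16 comprised 12 lncRNA and 4 protein-coding loci.

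In the libraries titled cdca7a cdca7b, 1 member (0.450% of the 222) was called higher and 6 (2.7%) lower than in those titled Col-0. Over all genes tested the shares were 0.0448% higher and 0.381% lower. By table names this is Col-0 against h1.1 h1.2. In the libraries titled h1.1 h1.2, 4 members (1.80%) were higher and 9 (4.05%) lower than in those titled Col-0, with 2.82% and 1.12% over all genes. By table names this is cdca7a cdca7b against h1.1 h1.2. In the quadruple mutant, 1 member (0.450%) was higher than in the libraries titled Col-0, and 0 were lower with edgeR (0 with DESeq2), with 0.0448% and 0% over all genes. At an unadjusted p under 0.05 (edgeR), 2 of the 222 members were lower, against 106 of all 4461 genes tested.

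In the libraries titled h1.1 h1.2, 6 members (2.7%) were higher and 1 (0.450%) lower than in those titled cdca7a cdca7b, with 2.02% and 0.157% over all genes. By table names this pair is cdca7a cdca7b against Col-0. In the quadruple mutant, 5 members (2.25%) were higher and 1 (0.450%) lower than in the libraries titled cdca7a cdca7b, with 0.381% and 0.0448% over all genes, and by table names this is the quadruple mutant against Col-0. Against the libraries titled h1.1 h1.2, 2 members (0.901%) were higher and 3 (1.35%) lower in the quadruple mutant, with 0.157% and 0.179% over all genes. The median log2 fold change of the 222 members lay between -0.16 and 0.12 over the 6 pairs, and that of all genes between -0.04 and 0.05.

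**Figure D4:**
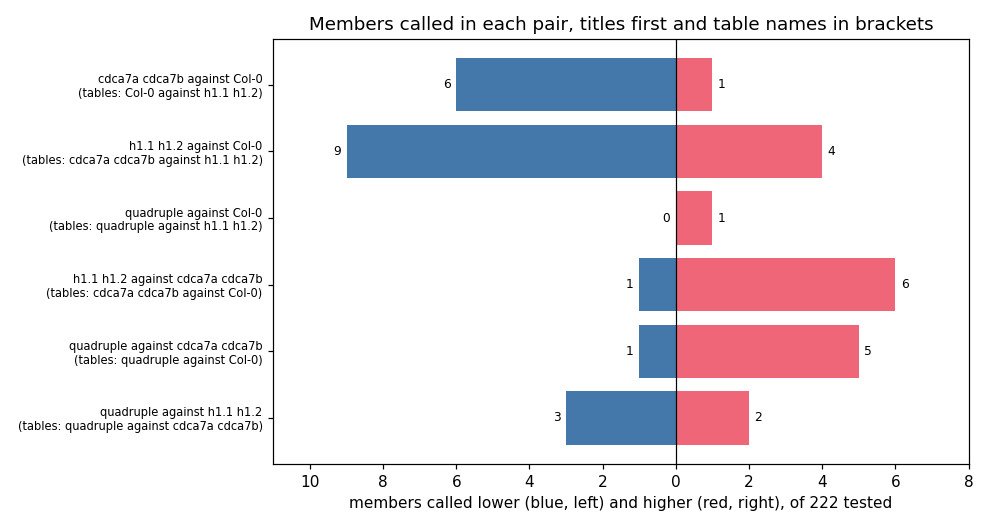
Number of members called lower (blue, left) and higher (red, right) in each of the 6 pairs of sets, of 222 tested, with titles first and table names in brackets. The most calls were 9 lower and 4 higher in the libraries titled h1.1 h1.2 than in those titled Col-0, and the fewest were 0 and 1 in the quadruple mutant against the same libraries.

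The counts of calls moved with single libraries. Shares over all genes are not given for these fits, and whether the movement is particular to the members was not tested. Without replicate 3 titled Col-0, 0 members in place of 9 were called lower in the libraries titled h1.1 h1.2 than in those titled Col-0, and without replicate 2 titled h1.1 h1.2, 15 were. Without both libraries with high leaf markers, a choice made after seeing the data, 3 were higher and 1 lower in that pair, and the numbers in the other pairs were 0 to 9.

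One group of called loci had its highest counts in the libraries titled h1.1 h1.2, the set whose tables are named cdca7acdca7b. AT3G06465, an lncRNA locus of 504 exonic bases on chromosome 3, had 1142, 1640 and 1098 counts in that set. It had 5, 0 and 0 in the libraries titled Col-0 and 0, 2 and 1 in those titled cdca7a cdca7b, and 17, 38 and 11 in the quadruple mutant. All 3 libraries of the first set were above the 9 others, and the quadruple mutant lay between. In CPM the set titled h1.1 h1.2 was at 2209 ± 719 (SD, n = 3) and the quadruple mutant at 46.3 ± 32.9 (n = 3). Against the libraries titled Col-0 the log2 fold change was 9.80 (SE 0.75, edgeR adjusted p = 2.76e-06), and it remained between 9.03 and 13.38 with an adjusted p of at most 0.000154 when any 1 library was left out. The quadruple mutant was lower than the set titled h1.1 h1.2 by 5.59 on the log2 scale (SE 0.56, edgeR adjusted p = 0.00012). It was higher than the libraries titled cdca7a cdca7b (log2 change 4.67 with SE 0.88, edgeR adjusted p = 0.0278), a call that was lost in 6 of the 12 fits that left out 1 library. In the genome, 2 other places match AT3G06465 over at least 100 bases at 90% identity or more, the longest over 317 bases, and only uniquely mapped reads were counted.

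AT2G05915, a small protein-coding locus of unknown product on chromosome 2, had 372, 344 and 363 counts in the libraries titled h1.1 h1.2. It had 59, 68 and 68 in the quadruple mutant, 38, 17 and 68 in those titled cdca7a cdca7b and 17, 21 and 8 in those titled Col-0. The first set was above the 9 other libraries, and in CPM the libraries titled cdca7a cdca7b lay below the quadruple mutant without a call (log2 change 1.07 with SE 0.31, edgeR adjusted p = 0.231), and above those titled Col-0, also without a call (edgeR adjusted p = 0.057). The log2 fold change of the first set against the libraries titled Col-0 was 4.88 (SE 0.35, edgeR adjusted p = 2.67e-06). The quadruple mutant was also called higher than the libraries titled Col-0 (log2 change 2.68 with SE 0.34, edgeR adjusted p = 0.00473), the only member called in that pair, and this call was lost without replicate 2 or 3 titled Col-0 (adjusted p up to 0.0975). All 351 exonic bases of AT2G05915 lie opposite AT2G05914, an lncRNA locus that is itself a member, which had 0 to 8 counts in every library.

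AT2G04735, an lncRNA locus on chromosome 2, had 40, 44 and 97 counts in the libraries titled h1.1 h1.2 and 0 to 6 in the 9 others. Unlike the loci above, its quadruple mutant libraries were at 1, 0 and 1, lower than those titled h1.1 h1.2 by 6.0 on the log2 scale (SE 1.12, edgeR adjusted p = 0.0304), a call lost in 7 of the 12 fits that left out 1 library. AT2G07215, a protein-coding locus of unknown product, had 31, 204 and 35 counts in the libraries titled h1.1 h1.2. It had 6, 18 and 19 in the quadruple mutant, 2, 15 and 7 in those titled Col-0 and 1, 0 and 1 in those titled cdca7a cdca7b. Its log2 fold change against the libraries titled cdca7a cdca7b was 7.0 (SE 1.07, edgeR adjusted p = 0.0056), and the call was lost without any 1 of those 3 libraries. AT2G07215 lies opposite the lncRNA locus AT2G07213 over 627 of its 738 exonic bases, and AT2G07213 had 0 to 4 counts in a library. For these 4 loci the leaf markers were high in replicates 1 and 3 of the same set. The loci were also high in replicate 2, whose leaf markers were just below the range of the 9 other libraries. The calls that chose these loci used replicate 2 as well, which favours this, and the part of the leaf markers was not tested. Without both leaf-rich libraries, a fit that leaves 1 library of the set, AT2G04735 lost its call against the libraries titled Col-0. In that fit AT3G06465, AT2G05915 and AT2G07215 kept theirs. For AT2G07215 the library left was replicate 2, at 204 counts against 31 and 35 in the others of its set. Its call against the libraries titled Col-0 was also lost without any 1 of the libraries titled Col-0.

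A second and larger group had its highest counts in the libraries titled Col-0 and in the quadruple mutant. By table names these are both sets without H1, the double h1.1 h1.2 mutant and the quadruple mutant. These sets were the upper 2 by mean CPM for 11 of the 16 called members, and for 9 of the 11 all 6 of their libraries were above all 6 others. Calls between these same sets chose the 16 loci, which favours such separation. The shares over all genes tested are not given here, so the pattern cannot be called particular to the members. AT5G03715, an lncRNA locus on chromosome 5, had 40, 61 and 53 counts in the libraries titled Col-0 and 43, 39 and 39 in the quadruple mutant. It had 2, 3 and 4 in those titled cdca7a cdca7b and 0, 2 and 8 in those titled h1.1 h1.2. Both lower sets were called against both higher ones. The quadruple mutant was higher than the libraries titled cdca7a cdca7b by a log2 fold change of 4.04 (SE 0.63, edgeR adjusted p = 0.00672) and higher than those titled h1.1 h1.2 by 3.86 (SE 0.62, edgeR adjusted p = 0.00952). Between both higher sets the log2 fold change was 0.24 (SE 0.50), and between both lower sets 0.18 (SE 0.75). With 1 library left out, these 4 calls were lost in 1 to 5 of the 12 fits, with an adjusted p up to 0.108. Of its 479 exonic bases, 395 lie opposite AT5G24275, annotated as an En/Spm-like transposon gene, which had 0 counts in all 12 libraries.

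AT2G05705, an lncRNA locus on chromosome 2, had 40, 58 and 39 counts in the libraries titled Col-0 and 28, 25 and 36 in the quadruple mutant. It had 0 in all 3 libraries titled cdca7a cdca7b and 3, 12 and 6 in those titled h1.1 h1.2. The libraries titled cdca7a cdca7b were thus at least 38.5-fold lower than those titled Col-0 and the quadruple mutant at least 37.4-fold higher than them, with 3 counts over the 3 libraries in place of 0. These 2 calls (adjusted p = 0.000913 and 0.000893, edgeR) held in each of the 12 fits that left out 1 library, with an adjusted p of at most 0.00913. The set titled h1.1 h1.2 lay between, at 12.1 CPM against 61.3 in the libraries titled Col-0 (log2 change -2.34 with SE 0.50, edgeR adjusted p = 0.0233). That difference was not called without both leaf-rich libraries, a fit that leaves 1 library of the set.

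AT2G08735, an lncRNA locus on the same chromosome, had 13, 37 and 53 counts in the libraries titled Col-0 and 16, 25 and 19 in the quadruple mutant. It had 2, 0 and 1 in those titled cdca7a cdca7b and 0, 2 and 1 in those titled h1.1 h1.2, and both lower sets were called against both higher ones. The log2 fold change of the libraries titled cdca7a cdca7b against those titled Col-0 was -4.75 (SE 0.84, edgeR adjusted p = 0.0192). Its 4 calls were lost in 2 to 8 of the 12 fits that left out 1 library. AT2G01008 (chr2:1025-3173), a protein-coding locus at the start of chromosome 2, had 30, 25 and 39 counts in the libraries titled Col-0 and 13, 8 and 16 in the quadruple mutant. It had 1, 2 and 3 in those titled cdca7a cdca7b and 0, 1 and 2 in those titled h1.1 h1.2. The log2 fold change of the last set against the libraries titled Col-0 was -4.58 (SE 0.75, edgeR adjusted p = 0.00936), a call lost without replicate 3 titled Col-0. AT2G01008 has 14 other matches of at least 100 bases and 90% identity in the genome, the longest over 1305 bases, so its counts are uncertain. AT2G05675 had 38, 61 and 36 counts in the libraries titled Col-0 and 31, 17 and 40 in the quadruple mutant, and 9, 1 and 1 in those titled cdca7a cdca7b. It had 13, 26 and 26 counts in the libraries titled h1.1 h1.2. The libraries titled cdca7a cdca7b were called lower than each of the 3 other sets, and these calls were lost in 7 to 9 of the 12 fits that left out 1 library.

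Another pair of loci completes those chosen by the size of their change. AT2G03821 had 25, 26 and 54 counts in the libraries titled Col-0, 3, 0 and 0 in those titled cdca7a cdca7b, 11, 9 and 10 in the quadruple mutant and 8, 8 and 1 in those titled h1.1 h1.2. AT1G06407 had 13, 22 and 14, then 1, 0 and 0, then 7, 8 and 2, and 0, 1 and 0 in the same order of sets. Both had all libraries titled Col-0 above all those titled cdca7a cdca7b or h1.1 h1.2. AT2G03821 was called only as lower in the libraries titled cdca7a cdca7b than in those titled Col-0, a call lost in 9 of the 12 fits that left out 1 library and with the replicate block. AT1G06407 was called only as lower in those titled h1.1 h1.2 than in those titled Col-0, a call lost in 5 of the 12 fits. The remaining 4 called loci, named after their values were seen, were AT1G06583, AT1G06757, AT2G06345 and AT3G07675, each called only as lower in the libraries titled h1.1 h1.2 than in those titled Col-0. AT1G06583 had 97, 97 and 56 counts in the libraries titled Col-0 and 21, 29 and 16 in those titled h1.1 h1.2. AT1G06757, which lies opposite the cyclin gene CYCB1;5 (AT1G34460), had 33, 33 and 20 against 5, 0 and 0, while CYCB1;5 was at 0 in all 12 libraries. These 4 calls, and those of AT1G06407, AT2G01008, AT2G05705 and AT2G08735 in the same pair, were not made without both leaf-rich libraries. That fit leaves 1 library titled h1.1 h1.2, replicate 2, so it cannot tell lost precision from a part of the leaf markers. In CPM each of these loci was lower in replicate 2 than in every library titled Col-0. The calls that chose these loci used the same libraries, replicate 2 included, which favours this order. The part of the leaf markers was not tested.

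AT2G05015 followed neither pattern. This lncRNA locus on chromosome 2 had 682 and 736 counts in replicates 1 and 2 titled cdca7a cdca7b, 0 in replicate 3, and 0 to 12 counts in the 9 other libraries. Its libraries overlapped in all 3 pairs in which it was called, and none of these calls was made without replicate 1 or 2 of that set or without any 1 library titled Col-0. The coding gene on its other strand, AT2G06845, shares 623 of the 689 exonic bases and had 0 counts in every library.

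**Figure D5:**
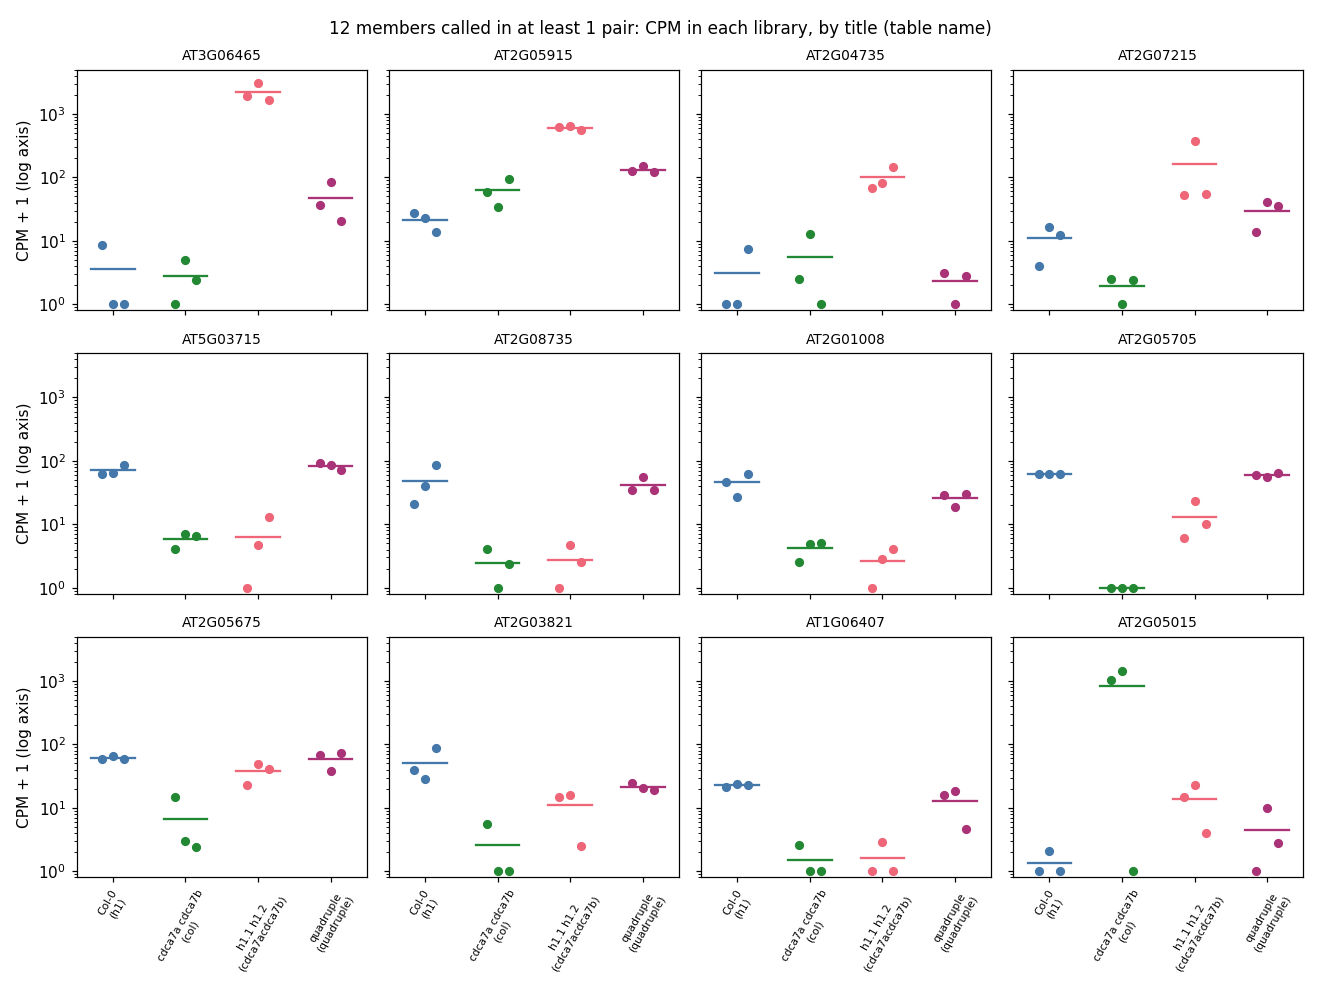
CPM plus 1 on a log axis in each of the 12 libraries (points) with set means (lines) for the 12 called members with the largest changes, sets named by title and, in brackets, by table name. In the top row the libraries titled h1.1 h1.2 are highest, from AT5G03715 to AT1G06407 those titled Col-0 and the quadruple mutant are highest by mean, and AT2G05015 is high in 2 libraries only.

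Titles and table names combine the 4 sets differently, so the interaction of CDCA7 and H1 was tested both ways. By title, the change with CDCA7 loss in plants without H1, less the change in plants with H1, was called positive for 11 members (4.95% of 222) and negative for 2 (0.901%), against 0.964% and 0.112% of all genes tested. If the table names are right, this term is not an interaction but the sum of the changes with H1 loss in the presence and in the absence of CDCA7. Examples were AT2G05705 (10.55 with SE 1.04, edgeR adjusted p = 0.000212), AT5G03715 (7.67 with SE 0.89, edgeR adjusted p = 0.000296) and AT2G08735 (9.19 with SE 1.19, edgeR adjusted p = 0.000754). By table names, the interaction term was called for 0 members in either direction with edgeR, with 0% and 0% of all genes called. At an unadjusted p under 0.05 (edgeR), 11 of the 222 members were positive and 13 negative, against 134 and 212 of all 4461 genes tested. DESeq2 also called 0 in either direction. The numbers called without both leaf-rich libraries are given below, without the shares over all genes. That fit leaves 1 library titled h1.1 h1.2, so those numbers are not compared with the shares above.

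Of the 16 called loci, 10 lie on chromosome 2, which holds 32 of the 222 tested members (14.4%) and 42 of the 204 genes called in any pair (20.6%). Of the 10 on chromosome 2, 9 lie in its first 7 Mb, as do 22 of the 32 tested there. The share of pseudogenes among the annotated loci within 250 kb, taken as a measure of repeat-rich surroundings, had a median of 30.3% around the 16 called members, 3.07% around the 206 tested and not called, and 4.52% around all 204 genes called in any pair. It was 74.5% around AT3G06465, 73.6% around AT2G05705 and 67.2% around AT2G05675, but 4.26% around AT2G08735 and 2.21% around AT5G03715, so the surroundings varied within each group. CG sites had a median of 3.33 per 100 exonic bases in the 16 and 3.19 in the 206. Exons on the other strand were overlapped by 10 of the 16 (62.5%) and 162 of the 206 (78.6%), and a coding exon by 5 and 126. None of the 12 most abundant loci was among the 16. These are descriptions with no test, since the calls chose the 16 loci.

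The place of a late-added lncRNA locus cannot be read from its number. Of 2168 lncRNA loci, 237 (10.9%) lie within 50 kb of the nearest lower-numbered locus whose number ends in 0, against 94.1% of the late-added protein-coding loci, 92.4% of the pseudogenes and 96.7% of the tRNA loci. AT3G07555, for example, lies at 17254700 on chromosome 3 beside AT3G46845, and AT5G03715 at 8244584 on chromosome 5 opposite AT5G24275.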

How the data were processed

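Polyadenylated RNA of single 14-day-old seedlings was sequenced with a stranded kit. The authors trimmed the reads with Trim Galore 0.6.7, aligned the left reads to TAIR10 with STAR 2.7.11a, kept unique alignments and made the deposited counts per gene with HTSeq 0.13.5. The annotation release and the strand option are not given in the sources used here. The 5 HTSeq summary lines, with 97.6 to 98.4% of reads in no feature, were left out of library sizes and tests, and 450869 to 833911 gene counts per library remained, which limits precision for low genes.

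The members and lists were chosen with earlier results of these data known. Genotypes were taken from the titles, with table names given beside them because they differ for 9 libraries. The tests used edgeR 4.0.16 under R 4.3.3 (TMM, filterByExpr, quasi-likelihood F test over 12 libraries, Benjamini-Hochberg adjustment over 4461 genes). A check on simulated data changed only genes above the median level of those tested, so it did not cover calls at low counts. The SE is the log2 fold change divided by the square root of F. The p-values measure the spread between single seedlings. Named were the 12 members with the highest mean CPM, up to 6 called members per pair with the largest change, 4 loci of known function or position, of which AT5G01675 was not analysed here, and the 6 most abundant members opposite coding exons. Folds against sets at 0 use 3 counts over the set, and counting floors cover counting error only. Biotypes, exons and sequences came from RefSeq TAIR10.1, in which 3615 of 3676 members matched. Genomic matches of tested members were counted from 100 bases and 90% identity. Alternatives were DESeq2 1.42.0, other library sizes, no filter, only the libraries compared, a replicate block, no fold-change minimum and each library left out. Leaving out both leaf-rich libraries and both interaction terms were added after seeing the data.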

Additional observations from a re-analysis of the deposited data

Results flagged for a closer look

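For 13 late-added loci the change with CDCA7 loss differed, by title, between plants with and without H1 (edgeR quasi-likelihood test of the interaction term, log2 scale). By table names this term is instead the sum of the changes with H1 loss. The term was positive for AT2G05705 at 10.55 (adjusted p = 0.000212), AT5G03715 at 7.67 (adjusted p = 0.000296), AT2G08735 at 9.19 (adjusted p = 0.000754) and AT2G01008 at 7.46 (adjusted p = 0.00117). It was also positive for AT1G06407 at 8.87 (adjusted p = 0.0148), AT2G08045 at 12.61 (adjusted p = 0.0191), AT2G05675 at 3.99 (adjusted p = 0.0274) and AT2G06345 at 3.18 (adjusted p = 0.0305). AT1G06583 at 2.26, AT1G06757 at 6.40 (both adjusted p = 0.0333) and AT2G03821 at 5.85 (adjusted p = 0.0344) completed the positive ones. AT2G08045 had 2, 24 and 5 counts in the libraries titled Col-0, 9, 9 and 12 in the quadruple mutant and 0 in the 6 others, so the size of its fitted term is no bound. The term was negative for AT2G05915 at -3.81 (adjusted p = 0.000381) and AT4G06195 at -5.48 (adjusted p = 0.0453). AT4G06195 had 93, 372 and 1115 counts in the libraries titled cdca7a cdca7b and 379, 34 and 36 in those titled h1.1 h1.2, where replicate 1 also had the highest leaf markers, and the part of the leaf markers in this value was not tested. Both loci were named after their values were seen.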

How the results depend on the processing

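Numbers of members called are given as higher and lower, sets by title, without the shares over all genes. DESeq2 called 2 higher for cdca7a cdca7b against Col-0, 2 lower for h1.1 h1.2 and 2 lower for the quadruple mutant against cdca7a cdca7b, 7 higher for the quadruple mutant against h1.1 h1.2 and 4 negative interactions by title. Without the filter on low counts there were 5 higher for cdca7a cdca7b, 11 higher and 14 lower for h1.1 h1.2 and 3 higher and 1 lower for the quadruple mutant against Col-0, 8 lower for h1.1 h1.2 and 11 higher and 4 lower for the quadruple mutant against cdca7a cdca7b, 12 higher and 8 lower for the quadruple mutant against h1.1 h1.2, and interactions of 21 positive and 8 negative by title and 2 and 3 by table names. With only the 6 libraries compared, h1.1 h1.2 had 2 lower against Col-0 and 2 higher and 0 lower against cdca7a cdca7b, and the quadruple mutant 0 higher against h1.1 h1.2. Without both leaf-rich libraries, where the lone h1.1 h1.2 library is assumed to vary like the other sets, there were 3 higher for cdca7a cdca7b, 1 lower for h1.1 h1.2 and 2 higher for the quadruple mutant against Col-0, 0 lower for h1.1 h1.2 and 9 higher and 2 lower for the quadruple mutant against cdca7a cdca7b, 1 higher for the quadruple mutant against h1.1 h1.2, and interactions of 5 positive and 1 negative by title and 2 negative by table names. Apart from the fewer libraries or more genes tested, the cause was not tested. With the replicate block the quadruple mutant had 1 higher against h1.1 h1.2. The replicate numbers did not pair the samples, since correlations of same-numbered deviations ran from -0.134 to 0.156 and 2 of 18 were over 0.1.

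With 1 library left out there were 0 to 3 higher calls and 1 to 7 lower ones for cdca7a cdca7b, 2 to 8 and 0 to 15 for h1.1 h1.2, and 0 to 1 and 0 to 0 for the quadruple mutant against Col-0. It gave 2 to 9 and 0 to 7 for h1.1 h1.2 and 1 to 7 and 0 to 2 for the quadruple mutant against cdca7a cdca7b, 0 to 12 and 1 to 6 for the quadruple mutant against h1.1 h1.2, and interactions of 4 to 17 positive and 1 to 3 negative by title and 0 by table names. The most calls mostly came without replicate 2 titled h1.1 h1.2. Of 738 alternative values of the 39 named calls, 538 kept the call, 200 lost it and 0 reversed. Low counts limit most members, since 998 with counts were not tested.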
